A study of Rattus norvegicus with 6 samples.

Results

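Glypicans and syndecans are the main families of heparan sulfate proteoglycans at the cell surface. They were examined here in rat cortical cells that carried either Math2, the older name of the neuronal basic helix-loop-helix transcription factor Neurod6, or a control vector. The 9 genes Gpc1, Gpc2, Gpc3, Gpc4, Gpc6, Sdc1, Sdc2, Sdc3 and Sdc4 were chosen by symbol, and every probe set with such a symbol on the platform was taken. These were 9 of 14218 genes with a probe set of their own symbol, and 18 of the 31099 probe sets on the array, 9 for the glypicans and 9 for the syndecans. Gpc4 was noted because its signal fell with Math2, so its difference between the groups is given as a description and has no test.

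A glypican is a core protein held in the membrane by a glycosylphosphatidylinositol anchor, whereas a syndecan crosses the membrane and has a short cytoplasmic tail. Both carry heparan sulfate chains near or above the cell surface, and these sulfated sugars bind fibroblast growth factors, Wnts, bone morphogenetic proteins, Slits and other secreted proteins. In the developing cortex Gpc4 is known from neural progenitors, and Gpc4 and Gpc6 released by astrocytes are known to promote the formation of excitatory synapses.

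Primary cultures of rat brain cortical cells were grown in medium with fetal calf serum in 10-cm dishes. Each dish received 13.3 µg of Math2 or control expression vector, plus 2.7 µg of a vector for a shortened neurotrophin receptor (LNGFR), whose surface display allowed magnetic selection after 24 h. All 6 samples carried this tag, and 50 ng of total RNA from the selected cells was amplified in a 2-cycle labelling scheme for the Affymetrix Rat Genome 230 2.0 array. The titles name control samples 1, 2 and 3 and Math2 samples 1, 2 and 3. The sources used here give neither the promoter of the vectors nor the age of the animals, and do not say whether numbered samples came from separate cultures. The p-values therefore reflect the spread among these 6 samples alone, which may be technical.

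Every array had a trimmed mean signal of 500, and array medians ran from 102 to 120. The hybridization spike-ins were 2.07-fold higher on the Math2 arrays by geometric mean (exact permutation p = 0.1 for 3 against 3 arrays, two-sided, the smallest possible). Of the brightest 1% of tested probe sets, 185 of 186 were higher on the Math2 arrays, with a median log2 difference of 0.43. The Gapdh 3' to 5' signal ratio ran from 3.74 to 13.8 on control arrays and from 6 to 8.48 on Math2 arrays. Neurod6 itself, whose probe set may lie outside the transfected sequence, had signals of 386, 207 and 973 for controls 1 to 3 and 312, 167 and 1546 for Math2 samples 1 to 3. Its signal was lower with Math2 for arrays 1 and 2 and higher for arrays 3. Where the probe set lies was not examined. A probe set outside the transfected sequence and a missing rise of Math2 RNA cannot be told apart here. This probe set therefore does not check the labels.

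The cells' labelled origin was set against marker genes. Neuron markers passed the filter on low values for 13 of 15 genes, astrocyte markers for 12 of 15 and neural progenitor markers for 10 of 11, with Gap43, Dcx and Stmn2, then Slc1a3, Gja1 and Fgfr3, then Fabp7, Vim and Sox2 as the brightest of each list. Bcl11b, Neurod1 and Slc17a6 were the brightest markers of excitatory, and Gad1, Dlx1 and Npy of inhibitory neurons. Oligodendrocyte lineage markers passed for 6 of 12 (Olig1, Cnp and Pdgfra brightest), fibroblast and meningeal markers for 10 of 15 (Col1a2, Mgp and Col3a1), and endothelial and mural markers for 5 of 12 (Flt1, Acta2 and Rgs5). Of 12 microglia markers, Ctss alone passed, so microglial RNA was near or below the filter on these arrays.

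Signals were put on a log2(signal + 7.42) scale and compared with limma over the 18625 probe sets whose mean log2 value was at least 6.07. A log2 difference below is Math2 minus control on this scale, which understates changes of dim probe sets. Each of the 9 genes had a probe set past the filter, and 13 of the 18 probe sets passed. The 5 that did not were 2 for Gpc6, 2 for Sdc3 and 1 for Gpc3, and each lay below the array median on all 6 arrays. Probe sets differ in brightness for reasons of design, so a brighter probe set does not mean more RNA, and no level of a gene is read against that of another.

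Among the 13 tested probe sets, limma called 0 at an adjusted p under 0.05, against 0% of all tested probe sets. With the replicate number as a block it also called 0, against 0.0161% of all, which is 3 probe sets. At an unadjusted p under 0.05 there was 1 of 13 without the block (3.19% of all tested probe sets) and 3 of 13 with it (7.7% of all). Gpc4 was among these in both fits, and its selection for this contrast means that these counts support nothing. For the other 8 genes the smallest adjusted p in limma was 1.0 without the block and 0.602 with it. With the block and quantile normalization limma called 1 of the 13, Gpc4, against 0.0268% of all, and with the block and the array's control probe sets kept it called the same 1, against 0.23%. These calls support nothing either, as Gpc4 was chosen for this difference. Its adjusted p in limma was 0.12 with the block alone and 0.459 with the block and no filter. The differences below are measurements of these 6 arrays. Those of the other genes did not pass a test, and that of Gpc4 has none.

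**Figure D1:**
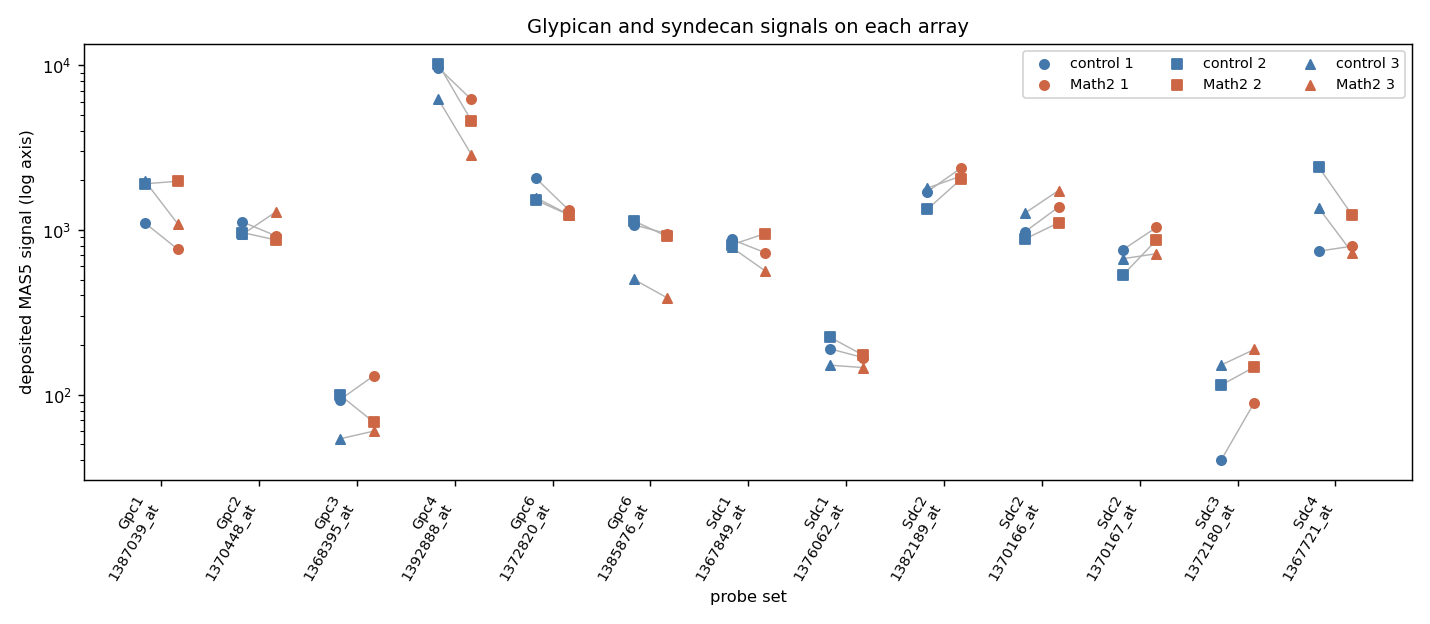
Deposited MAS5 signal (log axis) of the 13 tested glypican and syndecan probe sets on each array, with control arrays in blue, Math2 arrays in orange, and grey lines joining arrays of the same number. Gpc4 lies at 6237 or more on the control arrays and at 6191 or less on the Math2 arrays, and Gpc6 1372820_at and Sdc2 1382189_at are the other probe sets whose groups do not overlap.

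Gpc4, encoding glypican 4, had a single probe set (1392888_at). Its signals were 9678, 10195 and 6237 for controls 1 to 3 and 6191, 4596 and 2865 for Math2 samples 1 to 3. Every Math2 array lay below every control array, but the lowest control and the highest Math2 value were nearly equal. When arrays were centred on their medians these values changed order, and the groups overlapped. Group means were 8704 ± 2151 and 4550 ± 1663 (SD, n = 3), and the log2 difference was -0.97 (SE 0.296), or 1.96-fold lower. Compared by number, the log2 differences were -0.64, -1.15 and -1.12 for arrays 1, 2 and 3. Array 3 was the lowest of its group in both groups, so part of the spread within groups followed the array number.

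By mean signal Gpc4 ranked 503 among the tested probe sets, outside the brightest 1% described above. Quantile normalization, which gives all arrays the same distribution of signals, gave Gpc4 a log2 difference of -1.16. Leaving out single arrays gave values from -1.23 (without Math2 1) to -0.67 (without Math2 3).

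Cell type markers varied with the array number as well. The summed signal of 13 neuron markers was 23711, 18352 and 32176 for controls 1 to 3 and 20868, 18552 and 39887 for Math2 samples 1 to 3. It was highest on array 3 of both groups, where Gpc4 was lowest. Astrocyte markers, 12 in number, summed to 38039, 40030 and 31067 on the control arrays and to 43035, 40375 and 27353 on the Math2 arrays, lowest on array 3 of both groups. Between arrays of like number, Gpc4 was lower with Math2 in 3 of 3. The neuron sum was lower in 1 and higher in 2, and the astrocyte sum was higher in 2 and lower in 1. For arrays 2 both sums were nearly equal between the groups, so their signs there say little. Among all tested probe sets 54.3% were lower and 45.7% higher, and 4.3% were lower and 3.7% higher without overlap. Counted by gene, 9 of 13 neuron markers were higher, with a median log2 difference of 0.07. Of the 12 astrocyte markers 8 were lower, 2 of them without overlap, with a median of -0.06, or -0.18 with quantile normalization. The bright astrocyte markers Slc1a3 and Gja1 had 0.17 and 0.08, or -0.20 and -0.25 with quantile normalization, and weigh heavily in the sum. The neural progenitor sum of 10 markers ran from 46722 to 49909 on control arrays and from 47364 to 70975 on Math2 arrays, with 7 markers higher and 3 lower. Its median log2 difference of 0.15 was 0.003 with quantile normalization, and 1 marker was lower and 2 were higher without overlap. Fibroblast and meningeal markers, 9 of 10 of them lower, summed to between 8004 and 10345 on control and between 7000 and 8702 on Math2 arrays. Their median log2 difference was -0.22, or -0.17 with quantile normalization, and 3 were lower and 0 higher without overlap. Excitatory cortical neuron markers, 5 of 6 of them higher, summed to between 1786 and 5016 on control and between 1677 and 8309 on Math2 arrays. Their median log2 difference was 0.64, or 0.62 with quantile normalization, and 1 was higher and 0 lower without overlap. Inhibitory neuron and oligodendrocyte lineage markers were lower for 5 of 6 each, and endothelial and mural markers were higher for 3 of 5. The medians of these 3 lists were -0.09, -0.05 and 0.15. Without overlap, 1 endothelial or mural marker was lower and 1 higher. Sums of inhibitory neuron markers (2622 to 6030 and 3070 to 6199), oligodendrocyte lineage markers (8408 to 13261 and 9004 to 12654) and endothelial and mural markers (657 to 1313 and 893 to 1288) overlapped between control and Math2 arrays. No marker was listed at 0. The part of these cell types in the Gpc4 difference was not tested. In such a bulk sample, fewer cells of a type and less RNA per cell cannot be told apart.

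**Figure D2:**
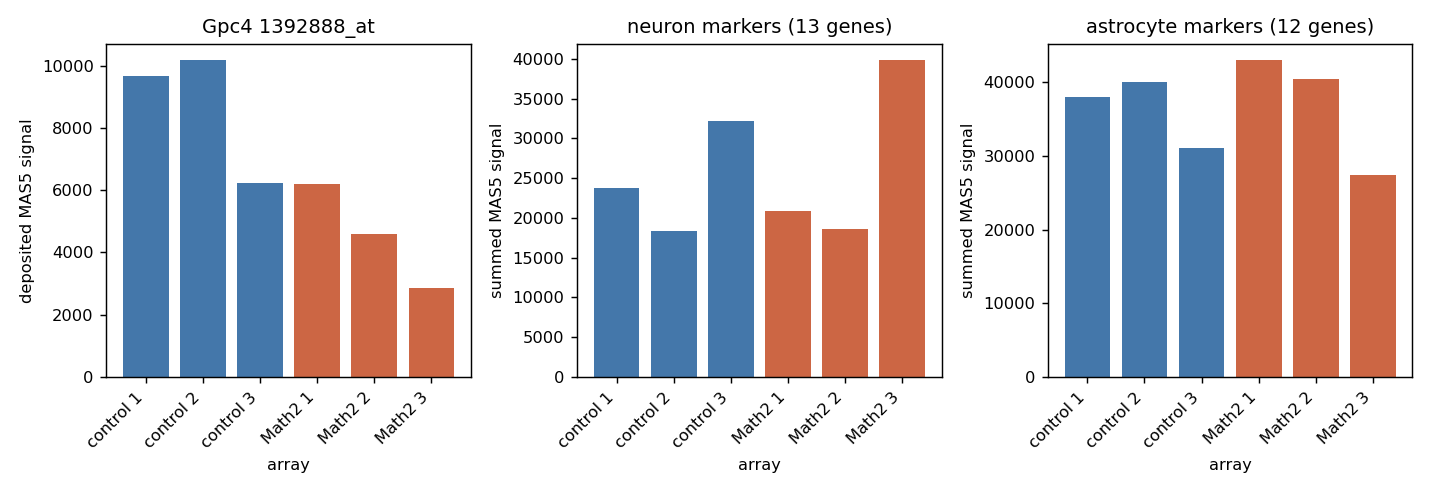
Signal of Gpc4 (left) and summed signals of the neuron (middle) and astrocyte (right) marker lists on each of the 6 arrays, on linear axes from 0, with control arrays in blue and Math2 arrays in orange. Array 3 of each group has the lowest Gpc4 signal, the highest neuron sum and the lowest astrocyte sum, and Gpc4 is lower on each Math2 array than on the control array of the same number.

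The promoter of Gpc4 is shown because Math2 belongs to a class of factors known to bind the E-box, a motif with the letters CANNTG. RefSeq-based windows of the GRCr8 assembly, from 250 bases before to 50 bases after the gene's start, were at hand for 6 of the 9 genes (Gpc2, Gpc3, Gpc4, Sdc1, Sdc3 and Sdc4). That of Gpc4 lies on the minus strand at chrX:136676008-136676307 and is given from 5′ to 3′ with E-box letters in capitals.
Gpc4: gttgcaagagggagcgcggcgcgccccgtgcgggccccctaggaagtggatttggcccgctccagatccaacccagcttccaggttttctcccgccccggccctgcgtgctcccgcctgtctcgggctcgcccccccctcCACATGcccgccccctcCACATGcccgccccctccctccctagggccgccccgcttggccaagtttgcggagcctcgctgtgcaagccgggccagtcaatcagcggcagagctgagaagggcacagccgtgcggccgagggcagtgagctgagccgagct
It holds 2 copies of CACATG, which begin 110 and 93 bases before the start. Among all 33469 windows of this length, 38.6% hold 2 or more matches to CANNTG, and 72.1% hold at least 1. On either strand, CACATG is in 14% of all windows, and 2.09% hold it 2 or more times. Because CACATG is the form seen in the Gpc4 window, its shares are a description and not a test. Gpc2 has CAATTG and Sdc3 has CAGTTG, while CANNTG is not in the windows of Gpc3, Sdc1 and Sdc4. The E-box forms CAGATG and CAGCTG, known from neuronal basic helix-loop-helix factors, are in 16.6% and 15.1% of all windows on either strand and in 0 of these 6. A match is a run of letters and not a measured binding site, and each CAGATG or CAGCTG or CACATG also counts as a CANNTG. A window with no match says only that these letters are not in it.

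Gpc6, the closest relative of Gpc4, with a like role at synapses, had 4 probe sets, of which 2 passed the filter. Probe set 1372820_at measured 2056, 1514 and 1568 for controls 1 to 3 and 1312, 1231 and 1235 for Math2 samples 1 to 3. The groups did not overlap, and the Math2 values lay close together. Means were 1713 ± 298 and 1259 ± 45.5 (SD, n = 3), with a log2 difference of -0.43 (SE 0.229) and an adjusted p in limma of 1.0, or 0.65 with the block. Leaving out single arrays gave -0.51 to -0.29. The other tested probe set, 1385876_at, had signals of 1074, 1134 and 501 in control and 949, 913 and 387 in Math2 samples 1, 2 and 3. Here the groups overlapped and array 3 was again lowest in both. Its log2 difference was -0.29 (SE 0.417), with lower values in 3 of 3 numbered pairs and a change to 0.13 without Math2 array 3. Over the 6 arrays the 2 probe sets of Gpc6 correlated at r = 0.369, so they did not report the same array-to-array pattern. The remaining Gpc6 probe sets, 1378748_at and 1396736_at, had signals between 2.14 and 38.1, too dim to give a direction.

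Gpc1, a glypican of axons and of cells that respond to growth factors, measured 1106, 1906 and 1994 in control and 762, 1974 and 1086 in Math2 samples 1, 2 and 3. The ranges overlapped widely. Its log2 difference was -0.45 (SE 0.366), lower for arrays 1 and 3 and 0.05 for arrays 2. It was -0.14 without Math2 array 1 and -0.82 without Math2 array 2. Gpc2, also called cerebroglycan and known from immature neurons, measured 1118, 964 and 939 in control and 922, 869 and 1285 in Math2 samples, a log2 difference of 0.008 (SE 0.253). Its sign turned without control array 2, control array 3 or Math2 array 3. Gpc3, a regulator of body growth and the neighbour of Gpc4 on the X chromosome, with 2 other protein-coding genes between them in GRCr8, was dim. Probe set 1368395_at read 93.4, 99 and 54 in control and 130, 68.2 and 60 in Math2 samples, below the array median on 5 of 6 arrays. Its log2 difference was 0.03 (SE 0.419), and its sign turned without control array 3 or Math2 array 1. Probe set 1396620_at of the same gene lay between 1.98 and 38.5.

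Sdc2, a syndecan of dendritic spines and of mesenchymal cells, had 3 probe sets, and each was higher with Math2 in 3 of 3 numbered pairs. The brightest, 1382189_at, measured 1707, 1335 and 1794 for controls 1 to 3 and 2367, 2025 and 2118 for Math2 samples 1 to 3. These groups did not overlap. Means were 1612 ± 244 and 2170 ± 177 (SD, n = 3). This gave a log2 difference of 0.44 (SE 0.223) and an adjusted p in limma of 1.0, or 0.627 with the block. Probe set 1370166_at had signals of 977, 882 and 1269 in control and 1376, 1105 and 1733 in Math2 samples, and 1370167_at had 760, 533 and 669 in control and 1035, 868 and 717 in Math2 samples. In both, the lowest Math2 array lay below the highest control array. Their log2 differences were 0.42 (SE 0.264) and 0.41 (SE 0.268). Leaving out single arrays gave 0.31 to 0.52 for 1382189_at, 0.26 to 0.58 for 1370166_at and 0.27 to 0.55 for 1370167_at. With quantile normalization the 3 values were 0.45, 0.46 and 0.47, close to those on the deposited scale. The 3 probe sets share 1 gene and the same arrays and are not separate replicates. Their correlations with each other over the 6 arrays were 0.779, 0.882 and 0.399.

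Sdc4, a syndecan of focal adhesions, measured 743, 2405 and 1356 for controls 1 to 3 and 797, 1233 and 729 for Math2 samples 1 to 3. Array 2 was the highest in both groups, and control array 2 set much of the difference. The log2 difference was -0.58 (SE 0.399), with an adjusted p in limma of 1.0, or 0.602 with the block. It was -0.17 when control array 2 was left out and -1.01 when control array 1 was left out. Sdc1, best known from epithelia, had probe sets with log2 differences of -0.17 (SE 0.269) for 1367849_at and -0.19 (SE 0.312) for 1376062_at. The first of these read 876, 812 and 783 in control and 728, 950 and 565 in Math2 samples, and its sign turned to 0.02 without Math2 array 3. The second read 190, 224 and 151 in control and 168, 174 and 146 in Math2 samples, with overlapping groups, lower values in 3 of 3 pairs and differences of -0.33 to -0.06 when single arrays were left out.

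Sdc3, the neuronal syndecan and a receptor for pleiotrophin, gave signals near the array medians or far below. Its tested probe set, 1372180_at, read 39.9, 114 and 151 for controls 1 to 3 and 89.3, 147 and 188 for Math2 samples 1 to 3. Array 3 was highest in both groups, as for the neuron markers, and the groups overlapped. The log2 difference was 0.56 (SE 0.491), above 0 in 3 of 3 pairs, and it was 0.05 without control array 1. Of the untested probe sets, 1368580_at had signals of 76.3, 45.8 and 9.09 in control and 6.77, 12.4 and 10.8 in Math2 samples, and 1368581_at lay between 3.85 and 33.9. Both were too dim to set their direction against that of 1372180_at.

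**Figure D3:**
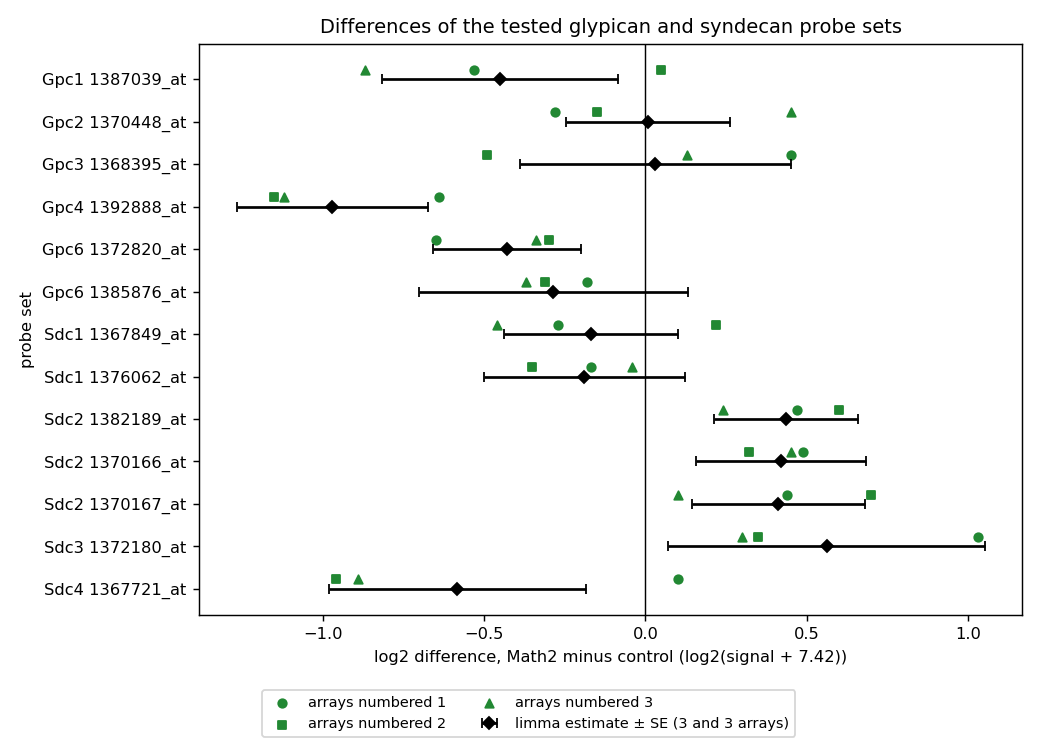
Log2 difference between Math2 and control for each of the 13 tested probe sets: black diamonds are limma estimates with their standard error from 3 control and 3 Math2 arrays, and green symbols are the differences of arrays 1, 2 and 3. Gpc4 is farthest below 0 at -0.97, the 3 Sdc2 probe sets lie together between 0.41 and 0.44, and no other probe set lies farther from 0 than -0.58 (Sdc4).

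Side by side, 7 of the 13 tested probe sets were lower and 6 higher with Math2, against 54.3% lower and 45.7% higher among all tested probe sets. Of the 6 glypican probe sets 4 were lower, and of the 7 syndecan probe sets 4 were higher and 3 lower. The median log2 difference of the 13 was -0.17, against -0.031 over all tested probe sets. Groups without overlap occurred for 2 lower probe sets (Gpc4 and Gpc6 1372820_at), against 4.3% of all tested probe sets, and for 1 higher (Sdc2 1382189_at), against 3.7%. Lower in 3 of 3 pairs were 4 probe sets (15.2% of all) and higher in 3 of 3 pairs were 4 (13.1% of all), of which Sdc2 alone gave 3. As the family was picked with results of this contrast known, these shares are a description. With arrays centred on their medians, Gpc4 left this count and 2 of the 13 had groups without overlap.

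Across the 6 arrays, the log2 signal of Gpc4 correlated at r = 0.755 with Gpc6 1372820_at and at r = 0.773 with Gpc6 1385876_at. Its highest r in the family was 0.797, with a syndecan probe set, Sdc1 1376062_at. It ran opposite to Sdc2, at r = -0.692, -0.866 and -0.323 for 1382189_at, 1370166_at and 1370167_at, and to Sdc3 1372180_at at r = -0.714. These values join the difference between groups to the variation within them. When each group's mean was taken away, Gpc4 correlated at r = 0.954 with Gpc6 1385876_at, at 0.308 with Gpc6 1372820_at and at 0.918 with Gpc3 1368395_at. The values for Sdc1 1376062_at and Sdc3 1372180_at were 0.773 and -0.678. With Sdc2 it then correlated at r = -0.137, -0.75 and 0.484 in the same order, so the opposite course was not shared by all 3 probe sets within the groups. All of them share the same 6 libraries. Outside the family, 66 of 13740 probe sets with a single symbol had r of at least 0.9 with Gpc4, and 32 had r of -0.9 or less. With only 6 arrays, such values also arise among unrelated probe sets. Whether these counts exceed that was not tested. The closest were Ppfibp2 (r = 0.986), Ube2k (0.985), Kazn (0.983), Ptpn14 (0.977) and Zbtb41 (0.971). Ptpn14, a protein tyrosine phosphatase, read 873, 817 and 660 for controls 1 to 3 and 571, 555 and 376 for Math2 samples 1 to 3, so it shared both the lower Math2 level and the low array 3. The most opposite were Atp8b4 (-0.98), Spsb4 (-0.978) and Bdh1 (-0.977). Atp8b4 was dim and varied little, at 62.4 to 77.8 over the 6 arrays, and Bdh1 was dim as well, at 57.8 to 138. With quantile normalization the 3 had r of -0.602, -0.966 and -0.963 in the same order. With quantile normalization 1 of the 5 closest stayed among the closest 5, and with group means taken away 0 did. The places thus changed with the processing. The r of these 5 ran from 0.851 to 0.98 with quantile normalization and from 0.945 to 0.966 with group means taken away. As the 5 were picked for the highest r on these same arrays, these values support nothing.

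The genes that build, trim and read heparan sulfate were taken from 8 lists with 137 genes, of which 96 had a tested probe set. In limma 0 of the 96 passed over all probe sets, against 0% of all tested, and 0 passed with the block (smallest adjusted p = 0.23), against 0.0161%. At an unadjusted p under 0.05 there were 3 without the block (3.12%, against 3.19% of all tested probe sets) and 11 with it (11.5%, against 7.7% of all). By sign 61 were lower and 35 higher (63.5% lower, against 54.3% of all tested probe sets), with a median log2 difference of -0.15. Groups did not overlap for 8 lower and 6 higher genes, or 14.6%, against 8% of all tested probe sets. Each listed gene stands for its brightest tested probe set, while the shares cover all tested probe sets, dim ones included. These percentages are therefore not like for like.

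Chain synthesis starts from a linker sugar on the core protein and is extended by exostosins. Of 10 genes 7 were lower and 3 higher, with a median of -0.13. Extl3, which adds the sugar that commits the chain to heparan sulfate, measured 1442 on average in control and 1023 in Math2 samples without overlap, a log2 difference of -0.49 (SE 0.238). Extl2 had 0.43 and the linker kinase Fam20b -0.36, and the polymerase subunit Ext2 had -0.15. The linker galactosyltransferase B3galt6 had 0.28, and Ugdh, which makes UDP-glucuronic acid for the chain, had -0.08. Enzymes that sulfate or edit the finished chain were lower for 9 of 12 genes and higher for 3, with a median of -0.21. The 3-O-sulfotransferase Hs3st1 had -0.50 and the 6-O-sulfotransferases Hs6st2 and Hs6st1 had 0.70 and 0.49. Ndst2, which replaces acetyl groups of the chain by sulfate, had -0.325. Hs6st2 was dim, at a mean of 56.7 in control samples, so its size is uncertain. The bright genes Sulf2, an extracellular 6-O-sulfatase, and Papss1, which makes the sulfate donor, had -0.21 and -0.10.

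Among enzymes that shed core proteins or cut chains, with their inhibitors, 5 of 11 were higher and 6 lower, with a median of -0.14. The gelatinase gene Mmp2 measured 1234, 1317 and 1125 in control and 1545, 2472 and 1481 in Math2 samples, without overlap (log2 difference 0.54, SE 0.26). Adam17, a sheddase, had -0.36 and the phospholipase Gpld1, which cuts glycosylphosphatidylinositol anchors, -0.999 with an SE of 0.711. The metalloproteinase inhibitors Timp3 and Timp1 had -0.375 and 0.09. Other proteins that carry heparan sulfate were lower for 6 of 8 genes, with a median of -0.33. Agrn, the basement membrane proteoglycan agrin, measured 2196, 2257 and 2571 in control and 1311, 1927 and 1972 in Math2 samples, without overlap. Its log2 difference was -0.45 (SE 0.237), with an adjusted p of 0.615 in limma with the block. Nrp2, a semaphorin receptor, had -0.60, the perlecan gene Hspg2 -0.48 and Cd44, a hyaluronan receptor, -0.29.

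Ligands that bind heparan sulfate were lower for 12 of 16 genes, with a median of -0.16, and their groups overlapped in each of the 16. The growth factor Hbegf had a log2 difference of -0.66, the chemokine Cxcl12 -0.51, and the matrix proteins Fn1 and Tnc -0.33 and -0.31. With quantile normalization the bright Tnc had -0.52. Ptn, pleiotrophin, the ligand of Sdc3, measured 9719 in control and 8745 in Math2 samples on average (-0.15, SE 0.17, or -0.38 with quantile normalization). Receptors that act with heparan sulfate were lower for 11 of 18 genes, with a median of -0.16. Fgfr3 was lower without overlap (-0.57, SE 0.185), the integrin subunit Itgb1 had -0.19, the mannose 6-phosphate receptor Igf2r -0.37 and the pleiotrophin receptor Ptprz1 -0.07. With quantile normalization the bright Itgb1 and Ptprz1 had -0.45 and -0.21. Lrp6, a Wnt coreceptor, had -1.09 and the Slit receptor Robo1 0.79, both on dim probe sets with overlapping groups.

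Partners of the syndecan tail had a median of 0.12, with 8 of 13 higher. Sdcbp, syntenin, which binds the tail of every syndecan, had 0.31, and this became -0.039 with quantile normalization, as did the median of the list. The kinase Fyn had 0.40, the kinase Prkca -0.51 and the Rac activator Tiam1 -0.335. Actn1, an actin crosslinker, had 0.05, or -0.16 with quantile normalization. The sign of this list therefore depends on how the arrays are scaled. Known synaptic partners of Gpc4 and Gpc6 had a median of -0.15, with 5 of 8 lower. Nptx1, a neuronal pentraxin that gathers AMPA receptors, measured 138, 128 and 214 for controls 1 to 3 and 357, 235 and 622 for Math2 samples 1 to 3. All Math2 values lay above all control values. The log2 difference was 1.23 (SE 0.395), with an adjusted p in limma of 1.0, or 0.23 with the block. The receptor phosphatase Ptprf had -0.62 and Gpr158, an orphan receptor that binds Gpc4, -0.50, both without overlap, while Ptprs, another phosphatase that binds Gpc4, had -0.12. Gria2, an AMPA receptor subunit, had -0.39, with the Math2 value above the control value in 2 of 3 pairs.

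**Figure D4:**
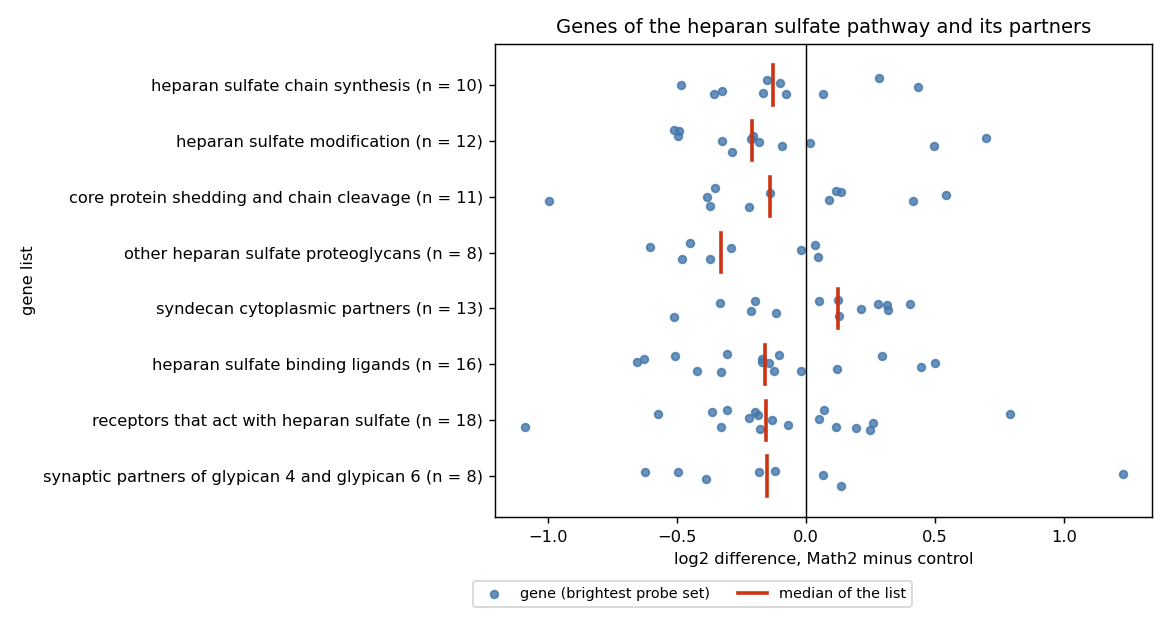
Log2 difference between Math2 and control (horizontal axis) for each of the 96 tested genes by list, with blue points for genes, spread vertically for legibility, and red bars for list medians. Medians lie between -0.33 for other heparan sulfate proteoglycans and 0.12 for syndecan partners, and Nptx1 at 1.23 is the point farthest to the right.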

How the data were processed

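Rat cortical cells with Math2 or control vector were measured on 3 arrays each. The deposited table holds 1 linear intensity per probe set and array; MAS5 is named, with no version, in the submitters' processing notes, and the sources used here do not give its settings. The table has no detection calls, so dim values are uncertain, and the number of arrays limits the precision. The trimmed mean (2% removed at each end) was 500 on every array, so no further scaling was applied. Symbols came from GEO's platform annotation, and all 9 genes matched RefSeq genes of GRCr8 by gene number. The table gives no coordinates.

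After 57 control probe sets were left out, log2(signal + 7.42), where 7.42 is the 10th percentile of all values, was filtered at the 40th percentile of the mean (6.07) and fitted with limma 3.58.1 in R 4.3.3 (lmFit, eBayes with intensity trend, two-sided, Benjamini-Hochberg over 18625 probe sets, threshold 0.05). The fit was tested on simulated data. Same-numbered arrays deviated from their group means together (r = 0.326, 0.476 and 0.372 across probe sets, each above the limit of 0.1). Arrays of unlike number had r from -0.46 to 0.104, and the highest, control 1 with Math2 3, lay just above that limit. The numbers of the titles were therefore taken as pairs, on the basis of the data, and a fit with the number as a block was run beside the planned fit without it.

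The gene family and all lists were chosen with earlier results of these data known. A listed gene was its brightest tested probe set. Named are every probe set of the family, in each pathway list up to 4 genes of smallest unadjusted p and the 2 brightest, in each marker list up to 3 of the brightest, and the 5 probe sets most like and 3 least like Gpc4 by Pearson correlation over 6 arrays. Alternatives were quantile normalization, median centring, pseudocounts of 1 and 32, no filter or one at the 60th percentile, no trend, the block, and leaving out arrays or pairs.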

Additional observations from a re-analysis of the deposited data

How the results depend on the processing

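Gpc4 stayed lower with Math2 in each of 21 alternatives, with log2 differences from -1.23 to -0.67, and each value lay within 1 SD of the main one. It passed the limma threshold over all probe sets in 2 of them: with the replicate block and quantile normalization, and, in an alternative chosen after seeing the data, with the replicate block and the control probe sets kept. Both support nothing, since Gpc4 was chosen for this difference. Of the other 12 tested probe sets 0 passed in any alternative. Of these, 8 kept their sign throughout, and Gpc2, Gpc3, Gpc6 1385876_at and Sdc1 1367849_at changed it only when arrays or pairs were left out. None of their 249 values moved by more than 1 SD. Settings that changed only the filter, the trend, the block or the control probe sets leave a log2 difference as it is. Those values could not move, so the count is a weak check. Measured by the SE of the main fit, some values did move by more than 1 SE. Sdc4 went from -0.58 (SE 0.399) to -1.01 without control array 1.

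Over all probe sets limma called 0 without the block under each alternative. With the replicate block it called 3, without the filter 0, with the replicate block and quantile normalization 5, and with the replicate block and control probe sets kept 43. Leaving out arrays without the block gave 0 calls, and leaving out pairs with it gave 4 (without pair 1), 114 (without pair 2) and 15 (without pair 3). The number of family probe sets whose groups did not overlap was 3, and 3 to 6 when an array was left out, since fewer arrays separate more easily. In the pathway lists, 0 to 1 genes were called when arrays or pairs were left out, the 1 being Nptx1 with the block and without pair 2 (limma adjusted p = 0.0255). Of the 5 probe sets most like Gpc4, 1 stayed among the closest 5 with quantile normalization and 0 with deviations from the group means. Among 168 values of the pathway list medians, 5 moved by more than 1 SD, all when arrays or pairs were left out. They belonged to the syndecan partners, the chain synthesis genes and the receptors. Of 8 pathway list medians 4 kept their sign. That of the syndecan partners turned with quantile normalization and without control array 1, Math2 array 2 or pair 1. Those of the chain synthesis genes (without Math2 array 3 or pair 3), of the shedding genes (without control array 3) and of the synaptic partners (without control array 3 or pair 1) turned only with fewer arrays. On all 6 arrays the block brought past the threshold Gpc4 alone of the family and list genes, in those 2 settings, and otherwise changed no call of them.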
